A study of Mus musculus with 18 samples.

Results

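Biglycan (Bgn), decorin (Dcn), lumican (Lum), fibromodulin (Fmod), osteoglycin (Ogn), asporin (Aspn), prolargin (Prelp) and versican (Vcan) are matrix proteoglycan genes, listed in the count tables as BGN, DCN, LUM, FMOD, OGN, ASPN, PRELP and VCAN. All 8 were found by symbol among the 24333 symbols that both deposited count tables hold. The set was selected on the level of Bgn, which had been seen higher in 168FARN Kmt2c KO cells, so no test is given for any of the 8 in comparisons that use those libraries, nor for Bgn where the 168FARN WT libraries enter. The other 7 genes were taken in by name, with earlier results of these data known.

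The cells were 168FARN and 67NR, both lines from mouse mammary tumours, grown in DMEM with 10% FBS. WT cells, which in 168FARN carry a control sgRNA, were compared with Kmt2c KO and Kmt2d KO cells. The KO cells were made by transient CRISPR/Cas9 transfection with sgRNAs against exon 1 and cell sorting, and are pools and not clones. PolyA RNA of each genotype and line was sequenced in 3 replicates, 18 libraries in all. KMT2C and KMT2D are histone methyltransferases that mark enhancers. By the study's methods, replicates of a line were harvests taken a passage apart, so a p-value measures the spread between harvests of the same cells.

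The leucine-rich members are short secreted proteins whose repeats bind collagen fibrils and set how the fibrils assemble. Biglycan and decorin carry chondroitin or dermatan sulphate chains, lumican, fibromodulin and prolargin can carry keratan sulphate, and asporin lacks such a chain. Versican is a large proteoglycan that binds hyaluronan and swells the matrix between cells. In mammary tumours most of these proteins are laid down by fibroblasts, and mesenchymal-like tumour cells can make versican and biglycan.

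The 8 genes lie on chromosomes 1, 10, 13 and X. On mm9 (GENCODE vM1), Dcn (chr10:96942245-96980777) and Lum (chr10:97028135-97035337) are neighbours on the plus strand, 47.4 kb apart. Aspn (chr13:49639812-49662926) and Ogn (chr13:49703440-49719869) lie in 1 cluster with Omd and Ecm2, inside the gene Cenpp on the other strand, with which they share 0 exon bases. Prelp (chr1:135806881-135817991) and Fmod (chr1:135933831-135944854) lie 116 kb apart on opposite strands. Vcan (chr13:89794915-89882117) lies next to the link protein gene Hapln1, and Bgn (chrX:70728941-70741272) lies apart from the other members. Prelp shares 350 exon bases with the antisense transcript Gm15851, and whether counting used strand is not given in the sources used here, so Prelp counts could hold reads of both.

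Of the 8 genes, 6 matched a RefSeq promoter window on GRCm38.p6, which spans 300 bases around the start site. Bgn, Ogn and Vcan are shown because they had counts at or above the filter on low counts in all 18 libraries. Capitals mark GGGCGG letters, a TATAAA run or a TGANTCA run on either strand. The windows are chrX:73483351-73483650 for Bgn (plus strand), chr13:49607765-49608064 for Ogn (plus strand) and chr13:89742463-89742762 for Vcan (minus strand).
Bgn: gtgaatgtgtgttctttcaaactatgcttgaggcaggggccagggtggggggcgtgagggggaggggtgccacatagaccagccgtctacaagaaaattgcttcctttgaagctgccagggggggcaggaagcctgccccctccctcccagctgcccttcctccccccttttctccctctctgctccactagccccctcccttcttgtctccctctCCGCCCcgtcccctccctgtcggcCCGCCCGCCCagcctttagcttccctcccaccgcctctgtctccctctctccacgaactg
Ogn: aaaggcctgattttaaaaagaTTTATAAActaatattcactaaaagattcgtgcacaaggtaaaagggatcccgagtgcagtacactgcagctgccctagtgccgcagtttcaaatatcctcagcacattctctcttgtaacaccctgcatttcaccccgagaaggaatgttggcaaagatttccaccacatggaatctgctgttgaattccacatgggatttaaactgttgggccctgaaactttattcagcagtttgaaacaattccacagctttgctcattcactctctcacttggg
Vcan: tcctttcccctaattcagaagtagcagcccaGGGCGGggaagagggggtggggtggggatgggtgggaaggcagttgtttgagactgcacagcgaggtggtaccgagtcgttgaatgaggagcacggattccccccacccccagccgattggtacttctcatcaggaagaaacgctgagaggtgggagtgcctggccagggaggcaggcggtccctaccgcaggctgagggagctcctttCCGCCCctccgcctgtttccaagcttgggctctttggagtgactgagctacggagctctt
The Bgn window held 3 matches to GGGCGG, which begin 34, 10 and 6 bases before the start, the last 2 of them overlapping, and the Vcan window held 2. Of 32851 windows of this length, 35.7% held at least 1. The Ogn window held 2 matches to TATAAA, which overlap each other and begin 229 and 227 bases before the start, and 13.6% of windows held that run. None of the 3 windows held TGANTCA, which 7.81% of windows had. G and C made up 63.7% of the Bgn window, 42.3% of the Ogn window and 61.0% of the Vcan window. These are matches of letters only.

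Total counts were between 14359760 and 43427382 per library in 168FARN and between 40951775 and 79251530 in 67NR. In 67NR Kmt2d KO replicate 3, 28.7% of the counts (15685049 of 54566649) lay in the ribosomal RNA gene Rn45s. The top gene of every other library held 4.96% or less. The TMM factor of that replicate was 0.732. In 67NR, 91.2% to 96.2% of counts from 1 to 20 were even numbers, against 39.5% to 47.2% in 168FARN, so counting noise there is larger than the counts show. Replicate 3 stood apart from replicates 1 and 2 in both lines. Neither Kmt2c nor Kmt2d mRNA fell beyond the spread of its groups in its own KO, which therefore does not check the labels. Kmt2c averaged 79.4 CPM in 168FARN Kmt2c KO against 90.3 CPM in WT, and 86.8 against 59.5 CPM in 67NR. Kmt2d averaged 234 CPM in 168FARN Kmt2d KO against 145 CPM in WT, and 109 against 99.4 CPM in 67NR. Of 8 epithelial markers, 1 exceeded a group mean of 1 CPM in the 168FARN groups, where Epcam, Krt5 and Cldn7 were at 0 counts. In 67NR, 6 or 7 did, and all 8 mesenchymal markers did so in every group of both lines.

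Levels are CPM, library-size scaled counts adjusted by TMM over all 18 libraries, and log2 fold changes come from edgeR fits within a line. Calls needed a Benjamini-Hochberg adjusted p below 0.1 together with a log2 fold change beyond 0.6 in either direction. A gene can pass the filter on low counts through the group where it is high alone, and its difference is then favoured or fixed in advance. A test is therefore given only where all 3 libraries of every group compared reached the filter's minimum, and shares of genes called are over such genes. Other differences are given as a description.

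**Figure D1:**
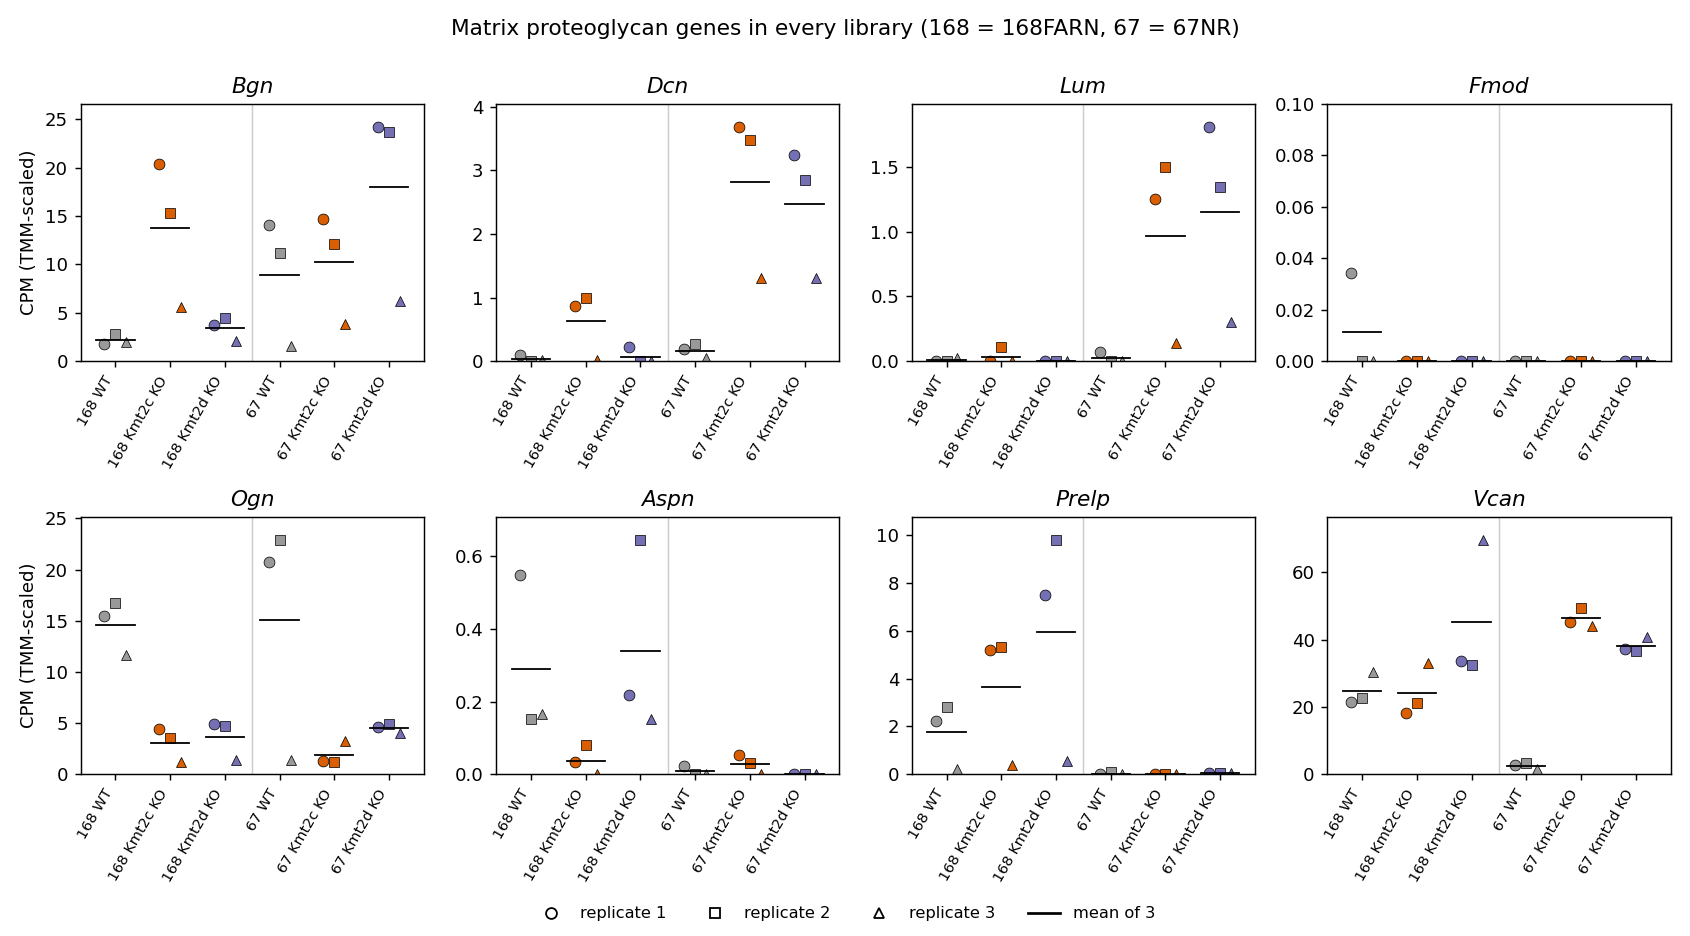
Level of each proteoglycan gene in CPM (linear axis from 0) in every library, by line and genotype, with symbols for the replicates and a line for the mean of 3. Bgn is highest in 168FARN Kmt2c KO within that line, Ogn is lower in both 168FARN knockouts than in WT, and Vcan is at 3.38 CPM or less in 67NR WT and at 36.5 CPM or more in both 67NR knockouts.

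Per kilobase of the longest annotated transcript, Ogn led in 168FARN WT at 5.75 CPM per kb ± 1.04 (SD, n = 3). Vcan followed at 2.003 ± 0.396 CPM per kb and Bgn at 0.915 ± 0.246 CPM per kb, and the spreads of these 3 did not meet. Prelp, at 0.484 ± 0.377 CPM per kb, was not apart from Bgn beyond its spread. Aspn averaged 0.123 CPM per kb, and Dcn, Lum and Fmod stood at 0.0239 CPM per kb or less. Vcan has 10 annotated transcripts of differing length, and over their mean length it came to 5.25 CPM per kb, within the spread of Ogn.

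In 67NR WT, Ogn (5.92 ± 4.66 CPM per kb, SD, n = 3) and Bgn (3.76 ± 2.74) did not differ beyond their spread, and over the mean transcript length Bgn came first, at 6.25 CPM per kb. Both had low values in replicate 3. Vcan stood at 0.206 ± 0.0742 CPM per kb. In 67NR Kmt2c KO, Bgn (4.30 ± 2.39 CPM per kb), Vcan (3.73 ± 0.229) and Dcn (1.60 ± 0.745) led. Bgn and Vcan did not differ beyond their spread in that group, and over the mean transcript length Vcan came first, at 9.77 CPM per kb. In 67NR Kmt2d KO the leading levels were Bgn at 7.58 ± 4.32, Vcan at 3.07 ± 0.180 and Ogn at 1.78 ± 0.175 CPM per kb.

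The loss of Kmt2c in 168FARN is the comparison from which the set was formed, so its values are a description. Bgn, a collagen-binding proteoglycan whose protein also signals through Toll-like receptors when released, stood at 1.74, 2.84 and 1.94 CPM in 168FARN WT replicates 1, 2 and 3. In Kmt2c KO it stood at 20.4, 15.3 and 5.63 CPM, and in Kmt2d KO at 3.73, 4.51 and 2.07 CPM. The lowest Kmt2c KO library was above the highest WT and Kmt2d KO libraries. The log2 fold change of Kmt2c KO against WT was 2.66 (SE 0.52, n = 3 against 3), and of Kmt2c KO against Kmt2d KO 1.99 (SE 0.51). Within replicate numbers the KO level was 11.7-fold higher in replicate 1, 5.39-fold in replicate 2 and 2.90-fold in replicate 3.

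Ogn, whose protein takes part in collagen fibril assembly, was the highest member per length in 168FARN WT, at 15.4, 16.7 and 11.6 CPM. It was at 4.40, 3.52 and 1.20 CPM in Kmt2c KO, with no overlap between the groups, for a log2 fold change of -2.26 (SE 0.59). Prelp, which binds collagen and perlecan, differed by 1.06 (SE 1.25) and Vcan by -0.04 (SE 0.36). Dcn, which binds collagen and transforming growth factor-beta, had 26, 37 and 1 counts in the Kmt2c KO libraries against 3, 0 and 1 in WT. It did not pass the filter on low counts in 168FARN, and replicate 3 of the KO was as low as WT. Aspn, with 1, 3 and 0 counts against 16, 5 and 7 in WT, did not pass it either. Lum had at most 4 counts in a 168FARN library and Fmod 1 count, in WT replicate 1. Of the neighbouring genes, Ecm2 had 1 to 41 counts and Omd 0 to 44 over the 18 libraries, and Optc, Kera and Epyc had 0 to 2.

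In the same libraries, 0.279% of all genes tested were called. Among the genes around the members, 1 of 11 tested other proteoglycans, 1 of 20 chain-building enzymes and 1 of 10 binding partners were called. Without a block for the replicate number, edgeR called none of 2 genes of the hyaluronan matrix, 2 other leucine-rich proteoglycans and 4 proteases. Of these, 0, 0 and 2 had an unadjusted p under 0.05, and DESeq2 called 0, 0 and 2, against 1.88% of genes. With the block, which called 6.16% of genes, 2 other proteoglycans were called higher, and 1 chain-building enzyme was called higher and 2 lower. In that fit 1 partner was called lower and 1 protease higher, and the calls in the hyaluronan and other leucine-rich lists stayed at 0. Sdc3, a cell-surface heparan sulphate proteoglycan, rose from a mean of 35.5 to 118 CPM (log2 fold change 1.74, edgeR adjusted p = 0.0812 by Benjamini-Hochberg). Csgalnact1, which begins chondroitin sulphate chains, rose from 25.2 to 58.7 CPM (1.22, adjusted p = 0.0447). The fibrillar collagen gene Col5a2 fell from 28.3 to 10.5 CPM (-1.42, adjusted p = 0.0537). Against Kmt2d KO, where 0.172% of all genes were called, the sulphotransferase gene Chst15 was lower in Kmt2c KO (-1.80, adjusted p = 0.0611) and the versican-cleaving protease gene Adamts9 was higher (2.42, adjusted p = 0.0921). Of the 5 endothelial markers, 1 exceeded 1 CPM in Kmt2c KO, Cdh5 at 4.57 to 4.97 CPM against 0.513 to 1.14 CPM in WT, with Emcn at 0 in all 9 libraries; whether it bears on Bgn was not tested.

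The loss of Kmt2d in 168FARN shares its WT libraries with the Kmt2c comparison. Without a block for the replicate number, neither of the 2 tested members, Ogn and Vcan, was called by edgeR, against 0.198% of all genes tested, although both had an unadjusted p under 0.05. With the replicate number as a block, both were called, against 4.93% of genes. DESeq2 called Ogn alone (adjusted p = 0.0400, with 1.54% of genes called).

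Ogn stood at 4.87, 4.72 and 1.36 CPM in 168FARN Kmt2d KO, below every WT library. The log2 fold change was -1.99 (SE 0.59), with an adjusted p of 0.506 in edgeR without the block and -2.16 (SE 0.28), adjusted p = 0.000706, with it. Within replicates 1, 2 and 3, Ogn was 3.17-, 3.55- and 8.58-fold lower than in WT.

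Vcan stood at 33.5, 32.5 and 69.6 CPM in Kmt2d KO against 21.4, 22.7 and 30.5 CPM in WT, without overlap. The difference was 0.87 (SE 0.36) with an edgeR adjusted p of 0.887, and 0.81 (SE 0.13) with an adjusted p of 0.00314 under the block. Prelp stood at 7.50, 9.80 and 0.565 CPM in Kmt2d KO and 2.22, 2.81 and 0.213 CPM in WT. The groups overlapped through replicate 3, with a difference of 1.79 (SE 1.27), or 1.74 (SE 0.23) with the block. It carries no test, since 2 of the 3 WT libraries reached the filter's minimum. Prelp was 3.37-, 3.49- and 2.65-fold higher in the KO within replicates 1, 2 and 3. Bgn, described without a test, differed by 0.67 (SE 0.50). The edgeR fit of replicates 1 and 2 alone called Ogn and Vcan, with adjusted p-values of 3.04e-05 and 0.00334, against 9.56% of genes.

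Without the block, no gene of the pathway lists was called in this comparison. With the block, 1 of 11 tested other proteoglycans (higher), 3 of 20 chain-building enzymes (2 higher and 1 lower) and 2 of 11 partners (1 higher and 1 lower) were called, and none of 2 hyaluronan genes, 2 other leucine-rich proteoglycans and 4 proteases. The counts with an unadjusted p under 0.05 in edgeR without the block were 1, 3, 2, 0, 0 and 1 in that order, and DESeq2 called 1, 2, 1, 0, 0 and 0.

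**Figure D2:**
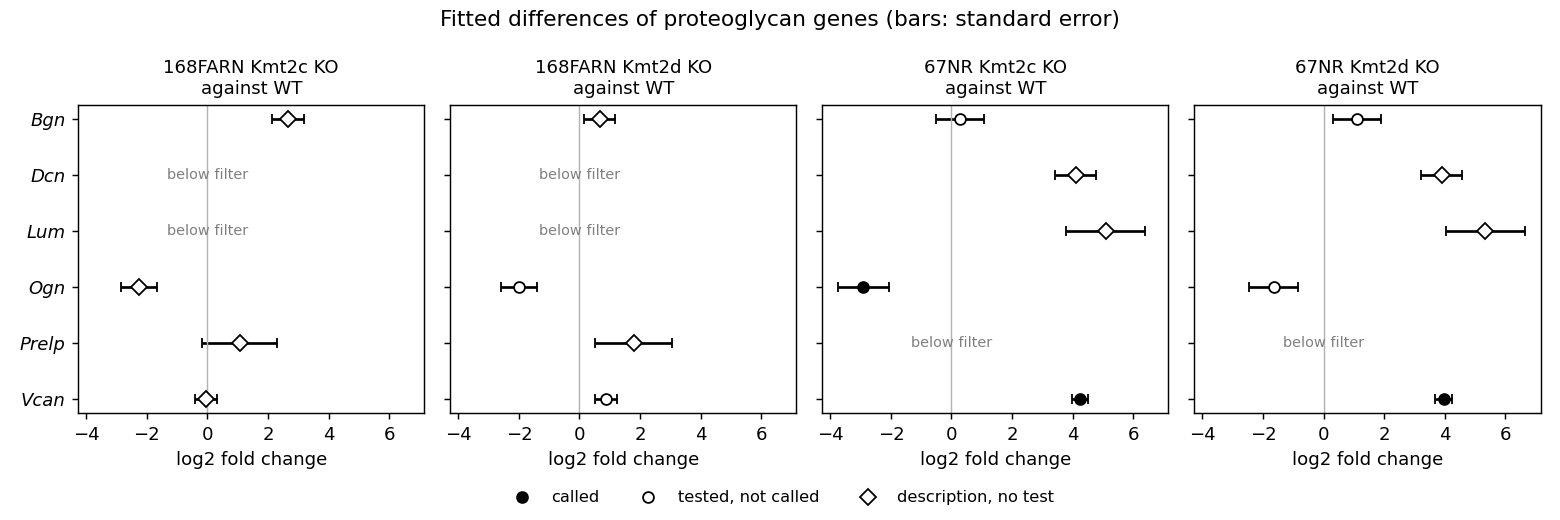
Log2 fold change against WT with its standard error (horizontal bars), for the 6 genes that passed the filter in at least 1 line. Filled circles were called, open circles were tested and not called, and diamonds carry no test, as for Dcn and Lum in 67NR. Dcn, Lum and Vcan lie between 3.90 and 5.34 in both 67NR knockouts, and Ogn lies below 0 in all 4 panels.

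In 67NR, 5 of the 8 genes passed the filter. Dcn and Lum passed through the KO groups alone, with 2 and 0 WT libraries at its minimum. The filter thus favoured a difference from WT, and both are described without a test. Fmod had 0 counts in all 9 libraries, which allows up to 0.0753 CPM in the library with the highest limit (3 counts, counting error only), and more where counts come in pairs, as most low counts of 67NR do. Aspn and Prelp had at most 4 and 6 counts in a library. Vcan, Dcn and Lum were higher in both knockouts, while Ogn was lower in replicates 1 and 2 of both and higher in replicate 3.

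In 67NR Kmt2c KO, 2 of the 3 tested members were called, Vcan higher and Ogn lower, against 32.4% of all genes tested (15.1% higher and 17.3% lower). Vcan stood at 2.74, 3.38 and 1.56 CPM in WT libraries and at 45.3, 49.5 and 44.2 CPM in Kmt2c KO. The groups were far apart, and the log2 fold change of 4.25 (SE 0.27, 19.1-fold) had an edgeR adjusted p of 7.91e-06. Its rise came to 16.5-, 14.7- and 28.3-fold within replicates 1, 2 and 3.

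Dcn stood at 0.189, 0.264 and 0.0459 CPM in 67NR WT and at 3.68, 3.47 and 1.31 CPM in Kmt2c KO. Every KO library was above every WT library, with a log2 fold change of 4.10 (SE 0.67). Lum, a fibril-binding keratan sulphate proteoglycan, stood at 0.0709, 0 and 0 CPM in WT libraries and at 1.25, 1.498 and 0.141 CPM in Kmt2c KO. Its fitted log2 fold change was 5.09 (SE 1.30), and in replicate 3 it rested on 6 counts. Dcn and Lum are neighbours on chromosome 10, and Kera and Epyc, the next genes, had at most 2 counts in a 67NR library.

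Ogn stood at 20.8, 22.9 and 1.42 CPM in 67NR WT and at 1.33, 1.16 and 3.22 CPM in Kmt2c KO. It was 15.6- and 19.7-fold lower in replicates 1 and 2 and 2.26-fold higher in replicate 3, so the groups overlapped. The fitted fall of 2.91 on the log2 scale (SE 0.84) had an edgeR adjusted p of 0.0248, and with the replicate block 0.0851 (37.6% of genes called). With replicates 1 and 2 alone the log2 fold change was -4.04 (adjusted p = 1.84e-12, with 40.5% of genes called). Bgn, at 14.0, 11.2 and 1.61 CPM in WT libraries and 14.7, 12.1 and 3.83 CPM in Kmt2c KO, differed by 0.28 (SE 0.78, adjusted p = 0.822). Without WT replicate 3 that value was -0.21, and without Kmt2c KO replicate 1 it was -0.10. The 2 lines were not tested for a different response of Bgn, since its rise in 168FARN chose the set.

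In 67NR Kmt2d KO, which shares the WT libraries, 1 of the 3 tested members was called, Vcan, against 23% of all genes tested (11.4% higher and 11.7% lower). Vcan stood at 37.3, 36.5 and 40.7 CPM in Kmt2d KO, all above WT, for a log2 fold change of 3.97 (SE 0.27) and an edgeR adjusted p of 1.84e-05. Dcn stood at 3.25, 2.85 and 1.31 CPM (log2 fold change 3.90, SE 0.67). Lum stood at 1.81, 1.34 and 0.301 CPM (5.34, SE 1.31), both described without a test.

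Bgn was higher in Kmt2d KO than in WT within each replicate number, at 24.2, 23.7 and 6.18 CPM, by 1.72-, 2.12- and 3.84-fold. Its log2 fold change of 1.09 (SE 0.79) had an edgeR adjusted p of 0.375, and with the replicate block it was called (1.27, SE 0.22, adjusted p = 0.000978, with 29.6% of genes called). Ogn stood at 4.58, 4.95 and 4.07 CPM, with a difference of -1.65 (SE 0.79, adjusted p = 0.176, and 0.263 with the block). It was 4.54- and 4.62-fold lower in replicates 1 and 2 and 2.86-fold higher in replicate 3, where WT was low. Without WT replicate 3 the value was -2.19 and Ogn was called (adjusted p = 0.00461). That fit called 4099 of all its genes, against 3482 with all libraries. DESeq2 also called Ogn (adjusted p = 0.0793, with 25.4% of genes called). With replicates 1 and 2 alone all 3 were called, against 32.7% of genes.

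Between the 2 knockouts of 67NR, none of the 4 tested members was called by edgeR or DESeq2, against 1.43% of all genes tested, and 0 had an unadjusted p under 0.05. The differences of Kmt2c KO from Kmt2d KO were 0.29 (SE 0.24) for Vcan, 0.20 (SE 0.58) for Dcn, -0.25 (SE 0.99) for Lum, which carries no test, -0.81 (SE 0.79) for Bgn and -1.26 (SE 0.80) for Ogn. Bgn was called under the replicate block (-0.79, adjusted p = 0.0608, with 7.34% of genes called). Of the 4, Vcan and Ogn did not overlap between the 2 knockouts, against 20.1% of 12304 genes, with Vcan at 44.2 CPM or above in Kmt2c KO and at 40.7 CPM or below in Kmt2d KO.

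**Figure D3:**
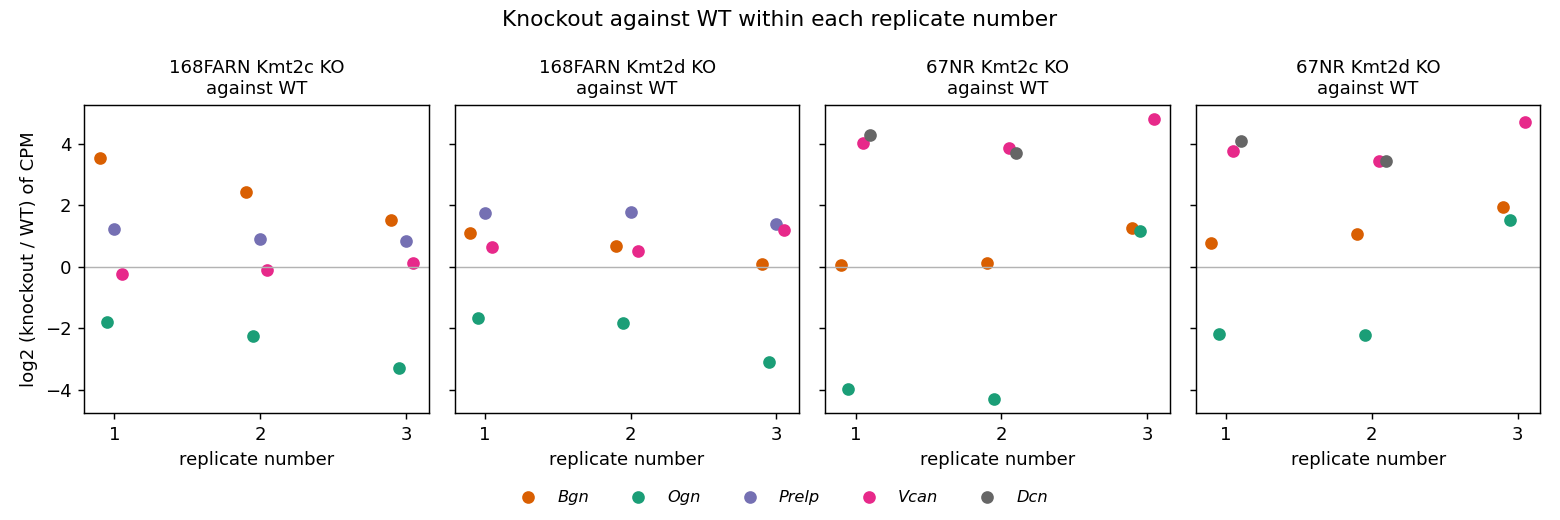
Log2 ratio of KO to WT CPM within each replicate number, for genes with counts over the limit of 3 in both libraries. In 67NR Ogn is below 0 in replicates 1 and 2 and above 0 in replicate 3, while Vcan stays at 3.43 or above in all 3. In 168FARN Ogn is below 0 and Bgn above 0 throughout.

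Markers of other states moved with these genes in 67NR. The summed level of 6 fibroblast and perivascular markers was 15.4 to 17.5 CPM in the WT libraries, against 157 to 241 CPM after loss of Kmt2c and 118 to 167 CPM after loss of Kmt2d. The rise lay mainly in Pdgfra, with group means of 13.01, 176 and 119 CPM in the same order, and in Des. Pdgfrb also rose (0.885, 6.75 and 4.52 CPM), while Fap was lower on average in both knockouts (0.269, 0.0596 and 0.169 CPM). Thy1 was at 0 counts in WT and Kmt2c KO, and Rgs5 reached at most 0.185 CPM in a 67NR library. The summed level of the 8 epithelial markers was 2259 to 3486, 465 to 760 and 802 to 1542 CPM, and that of the 8 mesenchymal markers was 4166 to 6508, 6033 to 9848 and 5202 to 9267 CPM. That last sum hides Fn1, which fell from a mean of 4444 CPM to 1068 and 1427 CPM, while the other 7 mesenchymal markers rose. Their part in the levels of Vcan, Dcn and Lum was not tested. In these cultures, more cells of a type and more RNA per cell cannot be told apart.

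In the WT cells, 1 of the 2 tested members, Vcan, was called between the lines, against 33.5% of all genes tested. Vcan was lower in 67NR by 3.27 on the log2 scale (-3.27, SE 0.35, adjusted p = 2.26e-06), from 21.4 to 30.5 CPM in 168FARN against 1.56 to 3.38 CPM. For Ogn the difference was 0.04 (SE 0.72, adjusted p = 0.975). Prelp, which passed the filter through 168FARN alone and carries no test, had 65, 92 and 9 counts in 168FARN WT and 0, 6 and 0 in 67NR WT. Dcn differed by 2.04 (SE 1.29), on few counts and with no test. Aspn did not pass the filter in this fit, with 16, 5 and 7 counts in 168FARN WT and 2, 0 and 0 in 67NR WT. Line and count table cannot be told apart, since each line has its own table. Bgn, given without a test, was higher in 67NR WT by 2.04 (SE 0.74), although 67NR WT replicate 3, at 1.61 CPM, lay below all 3 libraries of 168FARN WT.

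The effect of Kmt2d loss differed between the lines for Vcan, called in the interaction with 9.62% of all genes tested, of the 2 tested members. Its log2 change in 67NR exceeded that in 168FARN by 3.03 (SE 0.46, adjusted p = 0.000525 by edgeR with Benjamini-Hochberg adjustment). The value lay between 2.78 and 3.55 with each of 12 libraries left out and stayed called. For Ogn the difference was 0.28 (SE 1.03, adjusted p = 0.962). Dcn (2.90, SE 1.96) and Lum (7.37, SE 4.20) rested on 168FARN libraries with 0 to 5 counts, and Prelp (-1.38, SE 2.14) on 67NR libraries with 0 to 6, and these carry no test.

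Genes of the same matrix were called at shares to be read against the 32.4% of all genes in 67NR Kmt2c KO and the 23% in Kmt2d KO. In Kmt2c KO, 8 of 11 tested other proteoglycans were called, 7 higher and 1 lower, with a median log2 fold change of 0.68, against -0.04 over all genes tested. The cell-surface glypicans Gpc4 (mean 4.99 CPM before and 148 CPM after the loss, log2 fold change 4.97) and Gpc6 (1.15 and 18.2 CPM, 4.05) and the syndecan Sdc3 (6.76 and 85.5 CPM, 3.75) rose, with edgeR adjusted p-values of 7.22e-06, 0.000601 and 3.55e-06. Agrn, a basement membrane proteoglycan, fell from 240 to 62.8 CPM (-1.85, adjusted p = 6.44e-05). In 67NR Kmt2d KO, 5 of the 11 were called, with a median of 0.33 against -0.05 over all genes tested. Gpc4 (4.28), Gpc6 (3.53), the betaglycan gene Tgfbr3 (2.96) and Sdc3 (2.78) were higher and Agrn (-1.64) was lower. Sdc3 was also higher in Kmt2c KO than in Kmt2d KO (0.97, adjusted p = 0.0546).

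Of the 20 tested enzymes that build and sulphate the chains, 7 were called in 67NR Kmt2c KO, 6 higher and 1 lower. In Kmt2d KO 6 were called, 5 higher and 1 lower. In either direction these counts were near those shares, while most of the calls were higher. Over all genes, 15.1% were called higher and 17.3% lower in Kmt2c KO, and 11.4% and 11.7% in Kmt2d KO. Chst15, which adds a further sulphate to chondroitin sulphate, rose by 4.07 and 3.65 on the log2 scale in Kmt2c KO and Kmt2d KO. Chst3, a chondroitin 6-O-sulphotransferase, rose by 3.80 and 2.88, and Csgalnact1 by 2.21 and 1.83. Chst12, a chondroitin 4-O-sulphotransferase, fell by 0.94 and 1.02.

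Of the tested genes of the hyaluronan matrix, 2 of 3 were called in Kmt2c KO and 3 of 4 in Kmt2d KO. The hyaluronan receptor gene Cd44 (1.25 in Kmt2c KO and 1.12 in Kmt2d KO) and Tnfaip6, whose product binds hyaluronan (2.31 and 2.85), rose in both, and the link protein gene Hapln4 fell in Kmt2d KO (-1.72). Has2, which makes hyaluronan, stood at 49.7 CPM on average in 67NR WT and did not pass the test in either knockout (-0.30 and 0.17). Among 4 tested proteases, Bmp1, which trims the propeptides of procollagen, biglycan and osteoglycin, fell by 1.44 and 1.11, and it was the 1 called gene in Kmt2c KO. Adamts4, an aggrecan- and versican-cleaving protease gene, was called with it in Kmt2d KO (-0.65). Adamts5, a protease gene of the same family, passed the filter through WT alone and carries no test, with a WT mean of 2.64 CPM, against 0.0606 CPM after Kmt2c loss and 0 counts in all 3 Kmt2d KO libraries.

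Of the tested binding partners, 5 of 11 were called in Kmt2c KO, 3 higher and 2 lower, and 6 of 12 in Kmt2d KO, 4 higher and 2 lower. The fibrillar collagen genes Col5a2 (2.73 and 2.71) and Col5a1 (1.31 and 0.77) rose, as did Lrp1, an endocytic receptor of decorin and other ligands (2.14 and 1.68). Tgfb2 fell by 4.20 and 3.05, and the gene of the biglycan receptor Tlr2 by 1.70 and 1.01. Podnl1, another leucine-rich proteoglycan gene, rose by 1.62 and 1.32, and of the 2 tested genes of that list it was called with Tsku in Kmt2c KO and alone in Kmt2d KO.

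**Figure D4:**
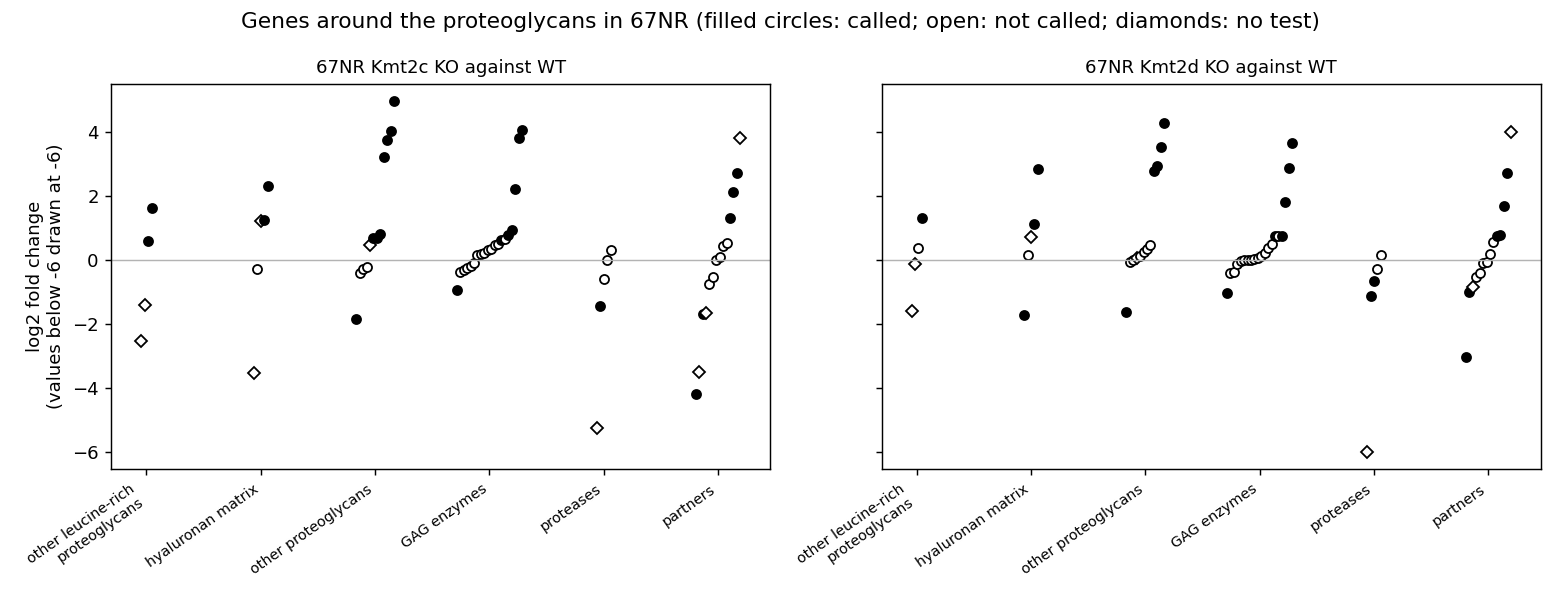
Log2 fold change of genes of 6 lists that passed the filter in 67NR, for Kmt2c KO (left) and Kmt2d KO (right) against WT. Filled circles were called, open circles were not and diamonds carry no test, and points below -6 are drawn at -6 (Adamts5 in Kmt2d KO). Both panels show called genes above and below 0.

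Some levels differed more between replicate 3 and the other replicates than between genotypes. In replicate 3 of 168FARN, Prelp was 11.8-, 13.7- and 15.3-fold lower than the mean of replicates 1 and 2 in WT, Kmt2c KO and Kmt2d KO. At least a 2-fold fall was seen in 15.3%, 19.8% and 16.9% of the genes tested in those groups. Bgn was lower in replicate 3 of all 6 groups, by 1.18- to 7.84-fold, and Ogn was 15.3-fold lower in 67NR WT, where 11.7% of genes fell at least 2-fold. Lum was 9.76- and 5.23-fold lower in replicate 3 of 67NR Kmt2c KO and Kmt2d KO, and Dcn 2.72- and 2.34-fold lower. Vcan went the other way in 168FARN, 1.38- to 2.11-fold higher in replicate 3. These ratios carry no test.

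The genes most like Bgn over the 9 libraries of each line, by the lower of the 2 within-line correlations of log2(CPM + 1), were Dlg2 (r = 0.88 in 168FARN and 0.94 in 67NR), Vamp2 (0.89 and 0.87) and Tanc2 (0.89 and 0.86). For Ogn they were Me3 (0.85 and 0.90), Ptprk (0.96 and 0.84) and Myh14 (0.87 and 0.83), and for Vcan they included Cadm1 (0.92 and 1.00) and Pcdh19 (0.88 and 0.97). These were among the closest of 11988 genes, and the libraries share line and replicate number. When each replicate number was centred first, 0 of the leading 3 genes of each member were shared with the first ranking, with Chst15 (0.98 and 0.99), Gdnf (0.94 and 0.98) and Pqlc3 (0.94 and 0.98) then closest to Vcan, and Bet1l, Arfip2 and Saysd1 closest to Bgn. Among the members in 67NR, Dcn correlated with Lum at 0.94 and with Vcan at 0.91 over the 9 libraries, and Ogn with Dcn at -0.53. These libraries span WT and KO, and Dcn and Lum passed the filter through the KO groups. The correlations therefore include their difference from WT and carry no test.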

How the data were processed

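RNA-seq of 18 libraries, 3 per genotype and line, was analysed from the counts that the authors deposited. Per the methods, reads were aligned with STAR inside the VIPER pipeline and per the labels to mm9. The deposited values are whole-number counts per gene symbol without normalization. The study treated each collection time as a batch when plotting heatmaps, while its differential expression is described with genotype as the factor. All columns were matched to samples by name. In the 67NR table, 27 symbols had been changed to dates and 4 duplicated rows were left out.

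Counts were fitted with edgeR 4.0.16 in R 4.3.3 (quasi-likelihood test, TMM, filterByExpr by genotype, robust dispersions), over 12253 genes with the 9 libraries of 168FARN, 13662 genes with the 9 of 67NR, and 13882 genes with all 18 for comparisons of lines. A test was read only where all 3 libraries of each group compared reached the filter's minimum (10 counts at the median library size), a rule set after seeing the data. Standard errors are log2 fold changes divided by the square root of F. Gene models were GENCODE vM1 (mm9), and promoter windows were RefSeq GRCm38.p6. Tests were checked on simulated data with the same dispersion for all genes and no replicate effect. That check does not cover replicate differences such as those seen here. No 2 replicates agreed within sampling noise (chi-square per degree of freedom 12.5 or more over 18 pairs).

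The members and the lists of related genes were chosen with earlier results of these data known. Named genes are all members, up to 3 called genes in each direction per list and comparison, the neighbours in each cluster and the 3 closest genes by correlation. Has2 and Adamts5 were named after their values were seen, and 1 gene that the rule names is not reported here.

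Deviations from the group mean correlated between same-numbered libraries with r from 0.65 to 0.90 (168FARN) and from 0.35 to 0.72 (67NR). For different numbers r was from -0.82 to 0.73 and from -0.60 to 0.52. Replicate 3 thus paired across genotypes, while numbers 1 and 2 were not told apart. In 168FARN, WT replicate 1 correlated at 0.723 with Kmt2c KO replicate 1 and at 0.728 with Kmt2c KO replicate 2. In 67NR, Kmt2c KO replicate 1 correlated at 0.385 with Kmt2d KO replicate 1 and at 0.523 with Kmt2d KO replicate 2. Fits with the replicate number as a block were alternatives, as were DESeq2 1.42.0, its size factors, no filter, a stricter threshold and each library left out. Added after seeing the data were fits of replicates 1 and 2 alone and 67NR counts halved.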

Additional observations from a re-analysis of the deposited data

Results flagged for a closer look

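The change on loss of Kmt2d differed between 67NR and 168FARN, by the interaction in the edgeR fit of 18 libraries, for Vcan by 3.03 on the log2 scale (67NR minus 168FARN). Among related genes, it was larger in 67NR by 4.41 for Gpc4, 3.32 for Gpc6, 2.53 for Tgfbr3, 3.30 for Chst3, 1.03 for Csgalnact1 and 3.06 for Col5a2. It was lower by 1.63 for Hapln4 (-1.63), by 1.35 for Chst12 (-1.35) and by 1.33 for Bmp1 (-1.33). The genes with the larger change had lower WT means in 67NR than in 168FARN. These were 4.99 against 58.9 CPM for Gpc4, 1.15 against 32.8 for Gpc6 and 14.4 against 99.3 for Tgfbr3. They were 0.526 against 3.44 CPM for Chst3, 6.32 against 25.2 for Csgalnact1 and 1.34 against 28.3 for Col5a2. Hapln4 was also lower in 67NR WT (2.66 against 13.1 CPM), and Chst12 (13.3 against 7.29) and Bmp1 (101 against 28.1) were higher. Whether WT levels bear on these differences was not tested. Groups of 3 libraries are too small for the test of single outlying samples.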

How the results depend on the processing

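The number of genes called, here over all genes in the fit, moved with the tool, the block and the libraries used. In 168FARN Kmt2c KO against WT, 44 genes were called, 288 by DESeq2, 886 with the replicate block, 1780 with replicates 1 and 2 alone, 23 at an adjusted p under 0.05 with no fold threshold, and 2 to 57 with 1 library left out. In 168FARN Kmt2d KO against WT the counts were 35, 248, 723, 1346, 19 and 0 to 18. Between the 168FARN knockouts they were 31, 235, 653 and 1141, and 2 to 35 with 1 library left out. Between the 67NR knockouts they were 193, 599, 995, 1743, 91 and 54 to 210. The interaction called 1471 genes, 3939 with the replicate block and 4539 with replicates 1 and 2.

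Of the proteoglycan genes tested, those called in 168FARN Kmt2d KO went from 0 to 1 with DESeq2, to 2 with the replicate block and to 2 with replicates 1 and 2. The share of all genes called there went from 0.198% to 1.54%, 4.93% and 9.56% in the same order. In 67NR Kmt2d KO the members called went from 1 to 2 with DESeq2, to 2 with the replicate block and to 3 with replicates 1 and 2. With 1 library left out they were 1 to 2, the higher count without WT replicate 3. The share of all genes called there went from 23% to 25.4%, 29.6% and 32.7%. Between the 67NR knockouts the members called went from 0 to 1 with the replicate block and to 2 with replicates 1 and 2. The share of all genes called went from 1.43% to 7.34% and 12.3%. Beyond the calls named in the report, the replicate block changed none of the members' calls. The genes most like Bgn, Ogn and Vcan shared 0, 0 and 0 of 3 after centring on replicate number.

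Differences near 0, or resting on few counts, changed sign when 1 library was left out. Bgn in 67NR Kmt2c KO ranged from -0.21 (without WT replicate 3, and -0.10 when the first Kmt2c KO library was left out) to 0.74. Between the 67NR knockouts, Dcn ranged from -0.11 (Kmt2d KO replicate 3 left out, and -0.05 without Kmt2c KO replicate 1) to 0.54. Between WT lines, Ogn ranged from -0.39 to 0.58, with -0.16 without 168FARN WT replicate 3, -0.27 without 67NR WT replicate 1 and -0.43 with the replicate block. In the interaction, Ogn ranged from -0.26 (without 67NR WT replicate 3, and -0.05 without 168FARN Kmt2d KO replicate 3) to 0.69, with -0.43 for replicates 1 and 2 alone. The cause was not tested. Counts of Lum, Dcn, Aspn and Fmod near 0 limit what can be said of them.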
